A study of Danio rerio with 18 samples.

Results

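CDK9 overexpression at the 1024-cell stage was examined across the genes of whole zebrafish (Danio rerio) embryos. The members were all genes with a p-value in the authors' deposited comparison of cdk9-injected with untreated embryos at this stage, 16996 of the 17135 genes in that table and of 32520 genes in the count table. The comparison used 6 of the 18 libraries of the series, 3 from CDK9 embryos and 3 from untreated embryos. All embryos were wild type, were dechorionated with the protease Pronase and were injected with the modified nucleotide s4UTP, which new RNA takes up. The CDK9 group received cdk9 mRNA with the s4UTP, and the untreated group s4UTP alone, so the untreated embryos were injected as well. No control mRNA was injected, and an effect of injected mRNA as such cannot be told apart from one of CDK9 activity. RNA carrying s4U was pulled down through biotin and treated with iodoacetamide, which makes the modified bases read as mutations (enriched SLAM-seq), from stranded libraries made without polyA selection. The same design was run at the 256-cell stage and with MiR430, a microRNA, in place of cdk9 mRNA, with 3 libraries per group.

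CDK9 is the kinase of P-TEFb, which it forms with a cyclin T. P-TEFb phosphorylates RNA polymerase II and its pausing factors so that a polymerase held just downstream of the start site moves into the gene. The 7SK RNA with Hexim, Larp7 and Mepce proteins holds P-TEFb inactive, and BET bromodomain proteins bring it to acetylated chromatin. In early zebrafish embryos the genome is silent through the first rapid cleavages. Transcription then begins at few sites, among them the mir-430 microRNA cluster of chromosome 4, which gathers polymerase in large transcription bodies.

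The authors' values for a gene were its mean normalized count, identical in all comparisons and so taken over more libraries than these 6, a shrunken log2 fold change with its standard error (SE), a p and an adjusted p. Values per library were not used, because the names of the 18 count columns match no sample label. No per-library value, SD or n is therefore given, and libraries that might stand apart could not be looked for. The mitochondrial genome's genes made up 96.8% of the summed mean, and nuclear genes had a median mean of 9.79 normalized counts. An adjusted p was given for 11724 genes, called tested here, and all 5272 members without one had a mean of at most 3.64. Counts of list members that did not pass include those without an adjusted p. In whole embryos, fewer cells of a type and less RNA per cell cannot be told apart. Of 15 markers of differentiated cells, 6 were measured, with means of 0.412 to 3.56 and a sum of 8.49, and 0 of these were tested.

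Nearly all calls were upward. By the deposited adjusted p of the authors, read at under 0.05, 690 genes rose, 5.89% of those tested, and 54 fell, 0.461%. The median log2 fold change was 2.73 in the risen genes, −2.23 in the fallen genes and 0.04 over all tested genes. Risen genes were short, with a median span from first to last annotated base of 6730 bases, against 18620 in fallen genes and 17327 in all tested genes. They also had few exons, with a median of 4 against 9 in the other sets. Of the risen genes, 38 were histone genes, 23 were mir-430 genes and 196 carried only a clone or accession name. The remaining 433, called named nuclear genes below, included 158 that belonged to at least 1 of the functional groups used here.

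The injected gene itself had the smallest p in the comparison. cdk9 (gene ID ENSDARG00000044811), which lies on chromosome 21 from 6136981 to 6150568 of GRCz11 and has 8 exons, rose by 5.88 (SE 0.39) at adjusted p = 9.7e-50 on the log2 scale (from the authors' deposited table). Reads of the injected mRNA and of the embryo's own gene are not separated in that value. The RNA that restrains the kinase rose too. rn7sk, the 7SK RNA gene (chromosome 13, 825904 to 826225, 1 exon), rose by 3.81 (SE 0.98) at adjusted p = 0.000708 by the authors' deposited table. Protein partners of P-TEFb did not pass, with log2 fold changes in the authors' deposited table of 0.39 for ccnt1, 0.20 for ccnt2b, 0.0034 for hexim1, −0.04 for larp7 and 0.37 for mepce. In all, 2 of 11 genes of P-TEFb and its partners rose, cdk9 itself and rn7sk, and 9 did not pass, with a median log2 fold change of 0.04. That is 18.2% of the 11 tested, against 5.89% over all tested genes. Because cdk9 was injected, this share does not describe its partners. Of the 5 BET genes of the list, all tested, 2 rose (40%). These were brd2a by 3.43 (SE 0.81) at adjusted p = 0.000429 and brd3a by 1.43 (SE 0.74) at adjusted p = 0.0359 per the authors' deposited table. With adjustment over all genes or after recentring, brd3a no longer passed (adjusted p = 0.052 and 0.0624 by the authors' p-values), which leaves 1 risen BET gene of the list. A further BET gene outside the list, brdt, known in mammals from the testis, rose by 3.88 (SE 0.83) at adjusted p = 8.58e-05 by the authors' deposited table.

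The share of genes that rose fell steeply with gene span. Among tested nuclear genes, 130 of 270 that spanned under 1 kb rose (48.1%), 44 of 229 from 1 to 2 kb (19.2%) and 114 of 1008 from 2 to 5 kb (11.3%). It was 7.82% from 5 to 10 kb, 4.69% from 10 to 20 kb and 2.72% from 20 to 50 kb. Of 1356 genes from 50 to 100 kb 18 rose (1.33%), and of 884 genes of 100 kb or more 6 rose (0.679%). The median log2 fold change ran from 2.09 under 1 kb through 0.17 at 2 to 5 kb to −0.02 at 100 kb or more. Fallen genes showed no such order. Under 5 kb there were 3 of 54 (5.56%), against 13.2% of all tested genes. At 50 kb or more there were 11 of 54 (20.4%), near the 19.1% of all tested genes.

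Histone and mir-430 genes filled much of the shortest class, so named nuclear genes were also read alone. Of these, 1 of 17 under 1 kb rose (5.88%), against the order of the longer classes. From 1 to 2 kb 24 of 134 rose (17.9%), 85 of 689 from 2 to 5 kb (12.3%), 119 of 1606 from 5 to 10 kb (7.41%) and 110 of 2350 from 10 to 20 kb (4.68%). At 20 to 50 kb 77 of 2701 rose (2.85%), at 50 to 100 kb 13 of 1194 (1.09%) and at 100 kb or more 4 of 780 (0.513%). Calls also depended on the counts behind them. With a mean of at least 50, 330 of 2390 tested genes rose, 13.8%. This mean takes in the libraries where a gene was high, so genes can reach 50 through the rise itself. Named nuclear genes with that mean gave shares of 50% (13 of 26) at 1 to 2 kb, 37.1% at 2 to 5 kb, 21.7% at 5 to 10 kb, 49 of 447 genes at 10 to 20 kb and 4.94% at 20 to 50 kb. The share was 1.49% at 50 to 100 kb and 1.21% at 100 kb or more, with 335 and 165 genes tested.

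**Figure D1:**
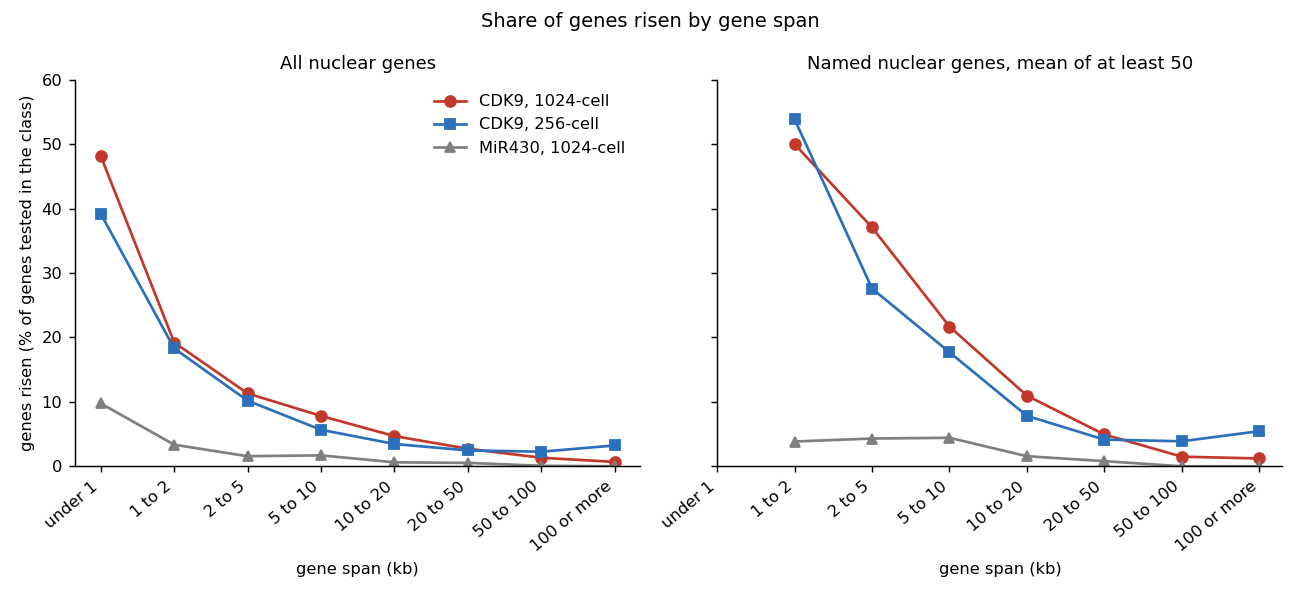
Share of tested genes that rose (vertical axis, percent of the genes tested in a class) by gene span in kb (horizontal axis), for CDK9 at both stages and MiR430 at the 1024-cell stage, on the left for all nuclear genes and on the right for named nuclear genes with a mean normalized count of at least 50. Classes under 20 tested genes are left out, lines join classes of a comparison, and both 1024-cell comparisons share the same untreated libraries. On the right, genes can reach the mean of 50 through the rise itself. For CDK9 at the 1024-cell stage the share went from 48.1% under 1 kb to 0.679% at 100 kb or more on the left, and from 50% to 1.21% on the right.

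At the 256-cell stage, where no library was shared, 460 of 9124 tested genes rose under CDK9 (5.04%). Named nuclear genes rose there in 19.8% at 1 to 2 kb and 9.52% at 2 to 5 kb. Their share was 2.12% at 50 to 100 kb and 2.75% at 100 kb or more, where 17 of 618 rose, against 4 of 780 at the 1024-cell stage. The median log2 fold change of those longest genes was 0.08 at the 256-cell stage and −0.03 at the 1024-cell stage. The difference between the stages in this order was not tested. For MiR430 at the 1024-cell stage, which has the same untreated libraries, 109 of 10748 tested genes rose (1.01%), and its shares of nuclear genes ran from 9.76% under 1 kb to 0% at 100 kb or more.

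Short genes tend to have few exons, and both were set out together for named nuclear genes with a mean of at least 50. Genes can reach that mean through the rise itself. Among genes with 3 or 4 exons, 19 of 43 that spanned 2 to 5 kb rose (44.2%), 18 of 57 at 5 to 10 kb (31.6%), 4 of 34 at 10 to 20 kb (11.8%) and 1 of 13 at 20 to 50 kb. In small classes of that exon number it was 6 of 7 under 2 kb and 1 of 9 at 50 kb or more. With 13 to 20 exons, 22 of 125 rose at 10 to 20 kb (17.6%), 14 of 233 at 20 to 50 kb (6.01%) and 2 of 127 at 50 kb or more (1.57%). Along exon number the order differed between spans. From 5 to 10 kb, 18 of 57 rose at 3 to 4 exons, 12 of 72 at 5 to 7 and 12 of 75 at 8 to 12. Smaller classes of that span had 1 of 7 at 1 to 2 exons, 5 of 14 at 13 to 20 and 1 of 1 at 21 or more. From 10 to 20 kb, 4 of 34 rose at 3 to 4 exons, 6 of 87 at 5 to 7, 14 of 166 at 8 to 12, 22 of 125 at 13 to 20 and 3 of 31 at 21 or more. From 20 to 50 kb, 1 of 13 rose at 3 to 4 exons. The shares there were 3.7% at 5 to 7, 2.83% at 8 to 12, 6.01% at 13 to 20 and 4.98% at 21 or more. At 50 kb or more they were 4.17%, 1.61%, 1.57% and 0.719% in the same order from 5 to 7 exons. These shares describe genes, and the order was not tested. Over all tested genes, 153 of 399 with a single exon rose (38.3%) and 31 of 1665 with 21 or more exons (1.86%).

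**Figure D2:**
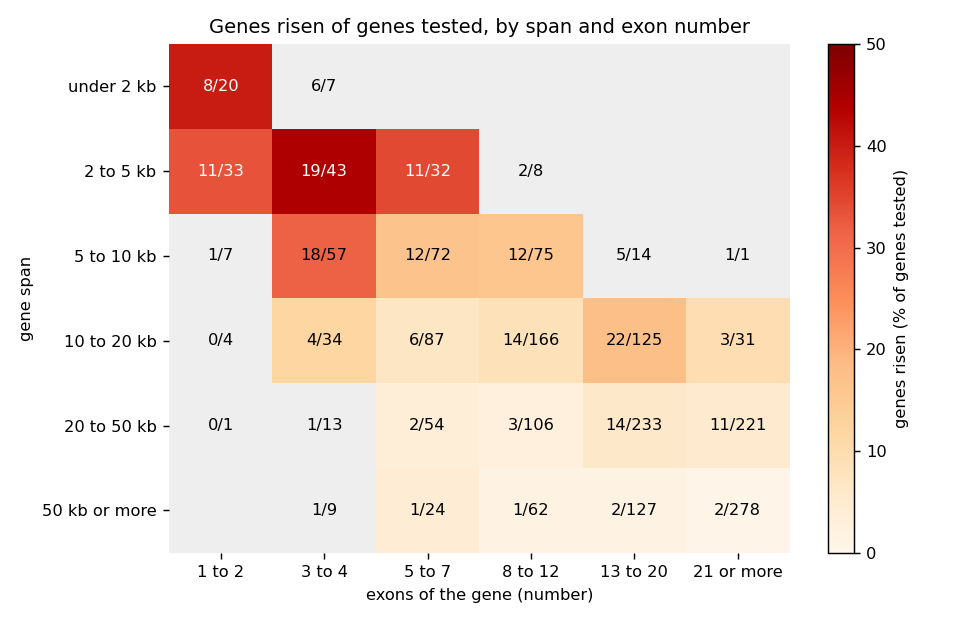
Named nuclear genes with a mean normalized count of at least 50, sorted by gene span (rows) and number of exons (columns), with the genes risen over the genes tested printed in each field and the percentage as colour. Genes can reach that mean through the rise itself, and fields under 20 tested genes are grey. Among coloured fields the share falls down the column of 3 to 4 exons from 19/43 to 4/34. Along the rows, coloured fields fall at 5 to 10 kb (18/57 to 12/75) and do not at 10 to 20 kb (4/34, 22/125 and 3/31).

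The share risen also climbed with the mean normalized count, from 0.111% of 904 genes under 5 to 5.69% at 20 to 50 and 31.1% of 206 genes at 200 to 1000. This mean is not scaled for length and takes in the libraries where a gene was high. Genes can therefore enter the highest class through the rise itself. Of the 13 named nuclear genes with a mean of at least 1000, 11 rose, 1 of them cdk9, whose reads include the injected mRNA. Among the others were klf17, brd2a, nanog and irx7, the RNA-binding genes hnrnpa0l, ddx5, khdrbs1a and acin1b, and hmga1a, which encodes an abundant chromatin protein. pnrc2, a nuclear receptor coactivator gene with a role in mRNA decay in mammals, rose by 3.29 (SE 0.67) at adjusted p = 6.08e-05 per the authors' deposited table. The 2 that did not pass were the ventral repressor gene vox at 1.83 at adjusted p = 0.0911 and drll.3 at 1.63 at adjusted p = 0.116 (from the authors' deposited table).

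The 24 risen genes that spanned at least 50 kb were few enough to follow singly. sesn1, which encodes a stress-responsive sestrin, rose by 3.62 (SE 0.80) at adjusted p = 0.000142 over a span of 78803 bases by the authors' deposited table. It lies 451 bases from the risen BX842669.1 on the same strand. sgk1, a serum-regulated kinase gene, rose by 3.41 (SE 0.89) at adjusted p = 0.00106, and pcdh1b, a protocadherin gene of 286601 bases, by 3.31 (SE 1.26) at adjusted p = 0.00786 per the authors' deposited table. cgnl1, which encodes a tight junction protein, rose by 2.61 (SE 0.87) at adjusted p = 0.00728 (from the authors' deposited table). Of these 24 genes, 9 lay within 10 kb of another risen gene or overlapped one, 37.5%, against 70 of 2216 genes of that span that did not rise, 3.16%. Such closeness was not particular to long genes. Over all spans 233 of 690 risen genes lay as near, 33.8%, against 4.86% of genes that did not rise. Under 5 kb it was 57.3% of risen genes, against 10.1% of genes that did not rise. Among named nuclear genes from 5 to 50 kb, which leave out histone and mir-430 genes, it was lower. There 42 of 306 risen genes lay as near (13.7%), against 4.38% of genes that did not rise. ipo4, an importin gene on chromosome 24, lay 3435 bases from nanog on the opposite strand. ece2a, on chromosome 2, lay 3505 bases from the condensin gene ncapd2, also on the opposite strand, and c2cd2l lay 2312 bases from the histone variant gene h2ax on the same strand. arhgef6 overlapped the splicing factor gene rbmx on the same strand. Whether reads of a neighbour entered the counts of a long gene was not tested. Without any gene that lay within 10 kb of a risen one, 0.694% of genes of at least 50 kb and 9.82% of genes under 5 kb rose.

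Histone genes had the highest median log2 fold change of the lists with at least 10 tested genes. Of 57 measured histone genes 38 rose, 0 fell and 19 did not pass, with a median log2 fold change of 2.66 over the 55 tested. The risen genes were 69.1% of those tested, against 5.89% over all tested genes. hist1h2ba (chromosome 25, 35048945 to 35049318, 1 exon), an H2B gene, had the largest rise of all named genes with a mean of at least 50, by 6.25 (SE 0.90) at adjusted p = 3.96e-11 by the authors' deposited table. The H3 gene hist2h3c rose by 4.39 (SE 0.84) at adjusted p = 8.43e-06 per the authors' deposited table. Of 24 tested H4 copies 18 rose with log2 fold changes of 2.43 to 5.05. Of 17 tested H2A copies, 12 rose with 1.79 to 4.07. These copies are nearly identical, and the sources used here do not say how the counting shared reads between them, so single copies are uncertain. Replacement variants, which are made outside replication and most of whose genes hold introns, formed with the linker genes a class of which 5 of 10 rose, with a median of 1.05. h2ax rose by 3.24, the h3f3b.1 copy on chromosome 3 by 2.66, h2az2b by 2.47, h3f3d by 1.81 and h2az2a by 0.88 (from the authors' deposited table). The maternal linker gene h1m had 0.09 at adjusted p = 0.846 by the authors' deposited table.

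Genes that serve histone supply were looked up after their values were seen. Only risen ones are given here, so they do not show how other such genes behaved. The genes came from no set list, so no share risen can be given. Whether such genes rose as a group was not tested. slbp, whose protein binds the stem-loop of histone mRNAs, rose by 1.93 (SE 0.91) at adjusted p = 0.0292, and casp8ap2, known in mammals for histone transcript processing, by 1.48 (SE 0.78) at adjusted p = 0.0378 per the authors' deposited table. The chromatin assembly gene chaf1a rose by 0.84 at adjusted p = 0.0375 and the histone chaperone gene nap1l1 by 1.21 at adjusted p = 0.0218 (from the authors' deposited table).

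Risen genes were unevenly spread over chromosomes. Chromosome 25 held 66 risen of 407 tested genes (16.2%), chromosome 4 86 of 654 (13.1%) and chromosome 7 71 of 634 (11.2%). The other 22 chromosomes lay between 2.26% and 7.69%. Outside these 3 chromosomes and the mitochondrial genome, 467 of 9992 tested genes rose (4.67%). On chromosomes 25 and 7 most risen genes lay in the histone regions. On chromosome 25 from 35 to 37 Mb, 58 of 90 tested genes rose, 19 of them histone genes and 37 clone-named. On chromosome 7, 40 of 65 rose from 5 to 7 Mb and 10 of 18 from 73 to 74 Mb. Within these windows most risen genes had a single exon, with 55 of 69, 40 of 53 and 8 of 8 risen, against 3 of 21, 0 of 12 and 2 of 10 genes with more exons. The clone-named zgc:112234 (chromosome 7, 5960491 to 5961503, 1 exon) rose by 5.24 (SE 0.79) at adjusted p = 1.38e-09 by the authors' deposited table.

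**Figure D3:**
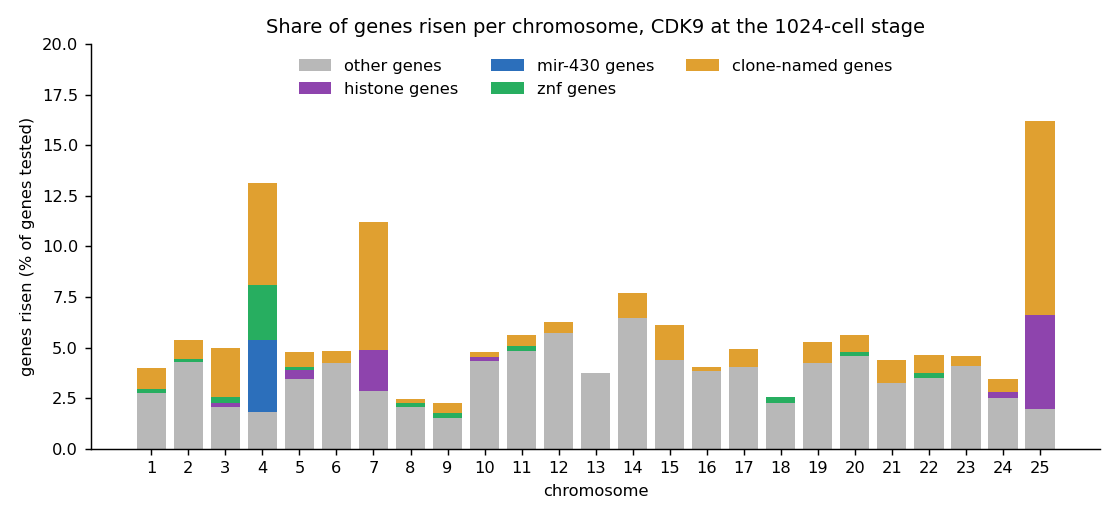
Share of tested genes that rose (vertical axis, percent) on each of the 25 chromosomes (horizontal axis), with the risen genes split by colour into histone, mir-430, znf, clone-named and other genes. Chromosomes 25, 4 and 7 stand at 16.2%, 13.1% and 11.2%, and the other 22 chromosomes at 2.26% to 7.69%.

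On chromosome 4 risen genes were of several kinds. Of the 54 measured mir-430 genes, 23 rose, 0 fell and 31 did not pass, with a median log2 fold change of 2.25 over 48 tested. The risen share of those tested was 47.9%, against 5.89% over all tested genes. All 23 risen mir-430 genes lay between 28 and 29 Mb, where 24 of 57 tested genes rose. The called copies ranged from 2.27 to 4.6 per the authors' deposited table, and since their sequences repeat, single copies are uncertain. There were 36 risen mir-430 genes at the 256-cell stage, with a median of 4.91 over 46 tested, where 5.04% of all tested genes rose. Under MiR430 at the 1024-cell stage 5 rose, with a median of 0.78 over 47 tested, where 1.01% of all tested genes rose.

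From 30 to 70 Mb of chromosome 4, the share risen was 16.9%, 23.6%, 11.5% and 19.4% in 4 successive windows of 10 Mb, and the median log2 fold change of tested genes was 0.79, 1.1, 1.1 and 1.02. The first 2 windows of the chromosome had 5.51% and 5.32%, with medians of 0.08 and 0.02, and the last 10 Mb had 2.67% and 0.12. Zinc finger genes with a znf name make up much of the long arm. Of 117 tested znf genes on chromosome 4, 18 rose (15.4%, median 0.93), and of 122 on other chromosomes 9 rose (7.38%, median 0.14). The znf genes of chromosome 4 were less abundant, with a median mean of 12.2 against 23.1, and similar in span, 9984 against 12072 bases. znf1051 (ENSDARG00000116992) rose by 4.52 (SE 1.29) at adjusted p = 0.000717 and znf1109 by 4.37 (SE 1.24) at adjusted p = 0.000771 (from the authors' deposited table). These genes are close paralogs, so the split of reads between them is uncertain. On chromosome 3 from 61 to 62 Mb, 6 of 13 tested genes rose, among them znf1134 by 4.43 (SE 1.25) at adjusted p = 0.000725 by the authors' deposited table. Chromosomes 4, 7, 17, 19 and 20 held 0 of the 54 fallen genes. Chromosome 3 held 9, which is 1.44% of its 625 tested genes, against 0.461% over all tested genes.

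Genes for RNA-binding proteins that package and splice pre-mRNA held many calls. Of 34 measured hnRNP and RNA helicase genes 14 rose, 0 fell and 20 did not pass, with a median log2 fold change of 0.80 against 0.04 over all tested genes. The risen genes were 42.4% of the 33 tested, against 5.89% over all tested genes. Among these 14 were acin1a, acin1b, khdrbs1a and khdrbs1b, which are neither hnRNP nor helicase genes. The list, like the other lists used here, was chosen with earlier results of these data known. Its share therefore does not measure how hnRNP genes behave as a class, and the same limit holds for the other lists. ddx5, an RNA helicase gene, rose by 2.94 (SE 0.61) at adjusted p = 0.000111 and khdrbs1a, the Sam68 splicing regulator gene, by 2.92 (SE 0.64) at adjusted p = 0.000238 per the authors' deposited table. acin1a, which encodes the splicing-associated protein Acinus, rose by 2.24 (SE 0.44) at adjusted p = 6.34e-05, and ptbp1a, the polypyrimidine tract binding gene, by 3.29 (SE 0.77) at adjusted p = 0.000431 (from the authors' deposited table). sfpq, another splicing factor gene, rose by 2.86 (SE 0.54) at adjusted p = 2.57e-05 by the authors' deposited table. Of 17 SR splicing factor genes 2 rose, srsf5a by 3.56 (SE 0.75) at adjusted p = 8.89e-05 and srsf2a by 2.00 (SE 0.54) at adjusted p = 0.00207 per the authors' deposited table. Among 43 core spliceosome genes snrnp48 and sf3b6 rose, 4.88% of the 41 tested and near the 5.89% over all tested genes, and the median was 0.01. rsrp1, an arginine-serine-rich protein gene, rose by 4.53 (SE 0.90) at adjusted p = 1.26e-05 (from the authors' deposited table).

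The transcription machinery on which P-TEFb acts is read here against the 5.89% of all tested genes that rose. Of 13 pausing and elongation factor genes and 14 genes of the PAF and super elongation complexes, 0 rose and 0 fell in the deposited DESeq2 test, and 0 and 1 of them had an unadjusted p under 0.05. supt5h, a subunit gene of the pausing factor DSIF, had −0.14 (SE 0.42) at adjusted p = 0.8 and the super elongation scaffold gene aff4 −0.06 (SE 0.29) at adjusted p = 0.919 by the authors' deposited table. Of 31 Mediator genes 0 were called in the deposited DESeq2 test, 4 had an unadjusted p under 0.05, and the median was 0.0021. polr2a, the largest subunit of RNA polymerase II and the target of CDK9, rose by 1.87 (SE 0.51) at adjusted p = 0.00219 per the authors' deposited table, with polr2eb and gtf2h2 the only other risen genes of 47, which is 7.69% of the 39 tested. Among 30 genes of Integrator and 3′ end processing, pcf11, a termination factor gene, rose by 3.08 (SE 0.77) at adjusted p = 0.000828 (from the authors' deposited table), and ints14 and ints6 rose as well, 3 of 30 tested. Of 21 acetyltransferase and deacetylase genes 0 rose and hdac4, which spans 392596 bases, fell by 2.09 (SE 1.11) at adjusted p = 0.0368 by the authors' deposited table. Of 15 DNA methylation genes 0 were called in the deposited DESeq2 test, with 3 at an unadjusted p under 0.05, and uhrf1 had −0.46 at adjusted p = 0.197 per the authors' deposited table.

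**Figure D4:**
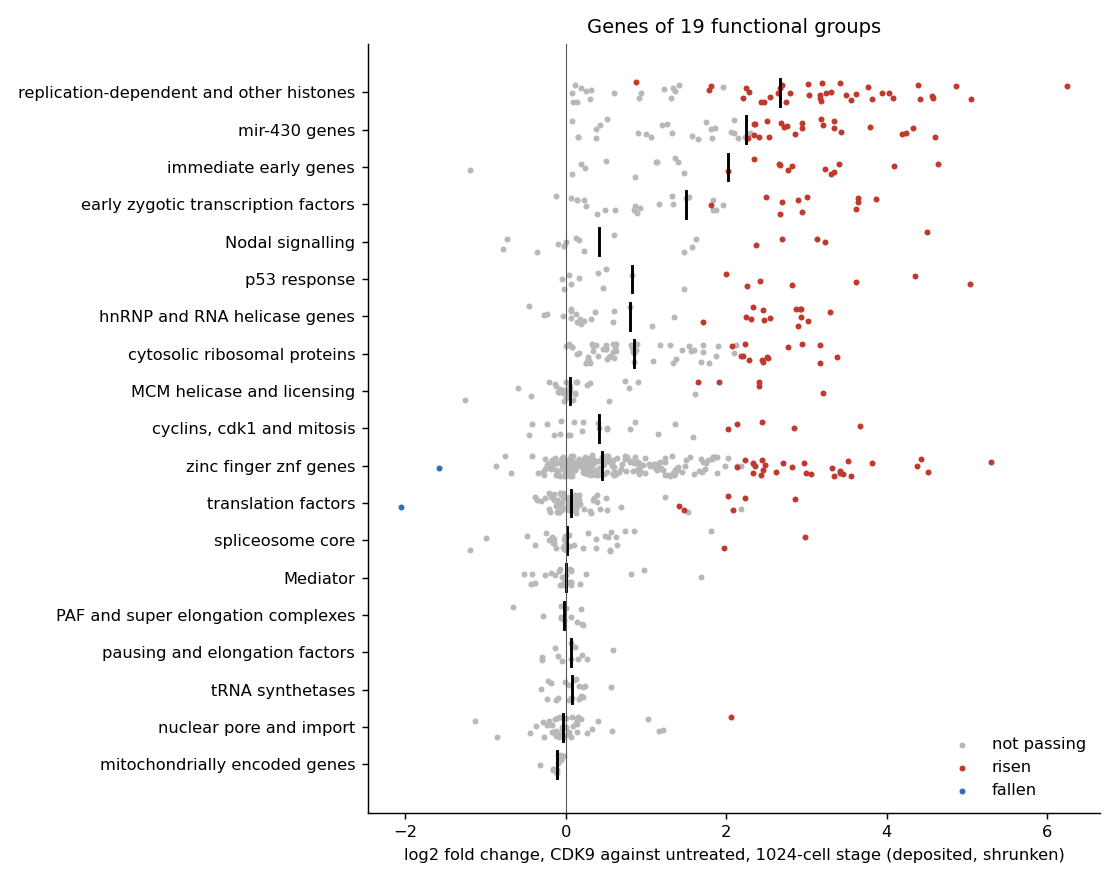
Deposited log2 fold change of CDK9 against untreated embryos at the 1024-cell stage (horizontal axis) for every tested member of 19 functional groups (rows), each point a gene, coloured by whether it rose, fell or did not pass, with the median of each group as a black bar. Histone genes have the highest median (2.66), while Mediator, pausing factors, tRNA synthetases and mitochondrially encoded genes gather around 0.

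Ribosomal protein genes had mostly positive values. Of 77 measured genes 14 rose, 0 fell and 63 did not pass. The risen genes were 20.6% of the 68 tested, against 5.89% over all tested genes. The median was 0.85, and 36 of 68 tested had an unadjusted p under 0.05. rps19 rose by 3.16 (SE 0.87) at adjusted p = 0.00179, rpl13a by 3.38 (SE 0.95) at adjusted p = 0.00187 and rps8a by 2.94 (SE 1.00) at adjusted p = 0.00657 (from the authors' deposited table). Of 79 translation factor genes 6 rose, 8.33% of the 72 tested, and 1 fell. eef2b, a translocation factor gene, rose by 2.23 (SE 0.56) at adjusted p = 0.00127, while eif4h, a cofactor of the eIF4A helicase, fell by 2.05 (SE 0.62) at adjusted p = 0.00443 by the authors' deposited table. Of 23 tRNA synthetase genes 0 were called in the deposited DESeq2 test and 0 of 20 tested had an unadjusted p under 0.05, and the tested genes had a median span of 33833 bases against 5774 in ribosomal protein genes.

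In other housekeeping groups utp3 alone rose of 34 tested ribosome biogenesis genes, ipo4 of 47 tested nuclear pore and import genes, and cox7a2l of 54 tested nuclear respiratory chain genes. Glycolysis genes had 0 calls of 20 in the deposited DESeq2 test and 1 at an unadjusted p under 0.05, with gapdh at 0.03 at adjusted p = 0.969 per the authors' deposited table. The 13 mitochondrially encoded genes of the list had 0 calls in that test, 0 at an unadjusted p under 0.05, with the median at −0.10. Of 37 tested proteasome genes 3 rose, 8.11% against 5.89% over all tested genes, led by psmb2 with 3.25 (SE 0.74) at adjusted p = 0.000293 (from the authors' deposited table). The polyubiquitin genes ubc and ubb rose by 1.98 (SE 0.48) at adjusted p = 0.000908 and 2.11 (SE 0.61) at adjusted p = 0.00357, while ube2ib, a conjugating enzyme gene, fell by 2.3 (SE 0.72) at adjusted p = 0.00553 by the authors' deposited table. Of 60 tested chaperone genes 3 rose, 5%, among them hspa5, the chaperone of the endoplasmic reticulum, by 2.57 (SE 0.57) at adjusted p = 0.000328 per the authors' deposited table.

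Genes of DNA replication and division rose in part. Of 40 MCM helicase and licensing genes 5 rose, 0 fell and 35 did not pass. The risen genes were 13.5% of the 37 tested, against 5.89% over all tested genes. The median log2 fold change of the list was 0.05, against 0.04 over all tested genes. mcm5, a subunit of the replicative helicase, rose by 3.2 (SE 0.63) at adjusted p = 3.67e-05, cdc6, a licensing factor gene, by 1.91 (SE 0.67) at adjusted p = 0.00968, and pcna, the sliding clamp gene, by 1.64 (SE 0.76) at adjusted p = 0.0269 (from the authors' deposited table). rrm2, a ribonucleotide reductase subunit gene, rose by 2.22 (SE 0.43) at adjusted p = 5.33e-05 by the authors' deposited table. Of 25 genes of cyclins, cdk1 and mitosis, all tested, 5 rose (20%), with a median of 0.41. fbxo5, an inhibitor of the anaphase-promoting complex, rose by 3.67 (SE 0.82) at adjusted p = 0.00015, and the kinase gene cdk2 by 2.13 (SE 0.55) at adjusted p = 0.00168 per the authors' deposited table. wee1, a kinase that delays mitosis, was the 1 risen gene of 12 in the checkpoint list, by 3.52 (SE 0.89) at adjusted p = 0.000748 (from the authors' deposited table). That is 9.09% of the 11 tested, and the median of the list was −0.04. Of 18 cohesin and condensin genes ncapd2, ctcf and smc4 rose, 18.75% of the 16 tested, with a median of 0.08. ctcf, the insulator gene, rose by 2.11 (SE 0.65) at adjusted p = 0.0049 by the authors' deposited table.

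Transcription factor genes of early development rose in part. Of 39 early zygotic transcription factor genes 11 rose, 0 fell and 28 did not pass, with a median of 1.5. The risen genes were 33.3% of the 33 tested, against 5.89% over all tested genes. nnr, which spans 1046 bases, rose by 3.87 (SE 0.96) at adjusted p = 0.000479 per the authors' deposited table. mxtx2, a regulator of the yolk syncytial layer, rose by 3.01 (SE 0.99) at adjusted p = 0.00553 and the ventral repressor gene vent by 2.89 (SE 1.17) at adjusted p = 0.013 (from the authors' deposited table). Of 6 genome activator genes nanog alone rose, by 1.99 (SE 0.60) at adjusted p = 0.00435, while pou5f3 had 0.32 at adjusted p = 0.375 and sox19b 0.03 at adjusted p = 0.954 by the authors' deposited table. That is 20% of the 5 tested, of which 3 had an unadjusted p under 0.05 in the deposited DESeq2 test. The median of the list was 1.25, so pou5f3 and sox19b were its lowest tested members. Of 24 Krüppel-like factor genes klf17 and klf13 rose, 11.8% of the 17 tested. klf17 rose by 2.98 (SE 1.18) at adjusted p = 0.0117 per the authors' deposited table.

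Signalling genes are read against the 5.89% of all tested genes that rose. Of 18 Nodal pathway genes, all tested, 5 rose (27.8%). These were the ligands ndr2, by 4.51 (SE 1.40) at adjusted p = 0.00112, and ndr1, by 3.13 (SE 0.96) at adjusted p = 0.00357, and the cofactor gene foxh1, by 2.69 (SE 0.68) at adjusted p = 0.00123 (from the authors' deposited table). The Lefty antagonist genes lft2 and lft1 rose by 3.23 (SE 1.05) at adjusted p = 0.00436 and 2.37 (SE 1.35) at adjusted p = 0.0375 by the authors' deposited table. Of 21 Bmp pathway genes 3 rose, namely bmper, id3 and chrd, 21.4% of the 14 tested. chrd, the organizer antagonist Chordin, rose by 3.25 (SE 1.32) at adjusted p = 0.00999 and id3, a Bmp target, by 2.78 (SE 0.97) at adjusted p = 0.00831 per the authors' deposited table. Of 40 genes of the Wnt list the organizer gene dharma alone rose, by 2.5 (SE 1.07) at adjusted p = 0.0182 (from the authors' deposited table). That is 3.85% of the 26 tested, below the share over all tested genes. Of 30 Fgf genes fgf20a and fgf17 rose, 12.5% of the 16 tested. fgf20a rose by 2.44 (SE 1.04) at adjusted p = 0.0184 (from the authors' deposited table). Of 25 Notch and hairy genes 5 rose, 31.25% of the 16 tested. Among them was the ligand gene dlc with 4.36 (SE 1.97) at adjusted p = 0.00299 by the authors' deposited table. snai1a, a Snail repressor gene of gastrulation, rose by 3.19 (SE 0.83) at adjusted p = 0.00121 by the authors' deposited table. It was 1 of 3 risen genes of 40 for gastrulation movement and adhesion, 10% of the 30 tested. Of 28 claudin and connexin genes the single-exon cldn23a rose, by 5.46 (SE 1.43) at adjusted p = 0.000121 at a mean of 11.7 per the authors' deposited table. That is 5.56% of the 18 tested, near the share over all tested genes.

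Immediate early genes are induced without new protein synthesis. Of 27 measured immediate early genes 12 rose, 0 fell and 15 did not pass, with a median of 2.02 over 23 tested. The risen share of those tested was 52.2%, against 5.89% over all tested genes. This list too was chosen with earlier results known. Its tested genes were short, with a median span of 3368 bases against 17327 over all tested genes. Their median mean was 54.7, against 19.9 over all tested genes. fosab, which encodes a c-Fos protein, rose by 4.64 (SE 1.08) at adjusted p = 0.000111, the antiproliferative gene btg1 by 4.09 (SE 0.90) at adjusted p = 9.18e-05 and the phosphatase gene dusp1 by 3.34 (SE 0.81) at adjusted p = 0.000595 (from the authors' deposited table). Of 21 p53 response genes 7 rose, 41.2% of the 17 tested, and 0 fell, with a median of 0.83. cdkn1a, the inhibitor of cyclin-dependent kinases, rose by 4.36 (SE 1.06) at adjusted p = 0.000222, and mdm2, the ligase that degrades p53, by 1.99 (SE 1.14) at adjusted p = 0.0456 by the authors' deposited table. Of 14 interferon and RNA sensing genes pkz, a sensor of double-stranded nucleic acid, and adar, an RNA editing gene, rose by 2.63 (SE 2.02) at adjusted p = 0.0312 and 1.65 (SE 0.86) at adjusted p = 0.0384 per the authors' deposited table. The injected mRNA was present in the same embryos as these rises, and its part was not tested.

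Maternal and germ line transcripts mostly did not pass. Of 30 germ plasm and maternal genes 1 rose, ybx1, a repressor of maternal mRNA translation, by 1.6 (SE 0.62) at adjusted p = 0.0133, and 1 fell, tdrd7a, a Tudor protein of germ granules, by 1.19 (SE 0.61) at adjusted p = 0.0328 (from the authors' deposited table). The risen share was 3.57% of the 28 tested, against 5.89% over all tested genes. Of 15 microRNA processing genes 0 were called in the deposited DESeq2 test and 0 had an unadjusted p under 0.05, with dicer1 at 0.11 at adjusted p = 0.796 by the authors' deposited table. Of 8 listed enveloping layer markers 5 were measured, of which 2 rose, krt8 and klf17. Of 6 listed yolk syncytial layer markers 3 were measured, of which 2 rose, mxtx2 and gata3. Of 6 germ cell markers, all measured, 0 rose and 1 fell, tdrd7a. The median of the germ cell markers was −0.34, and 3 had an unadjusted p under 0.05 in the deposited DESeq2 test. The part of cell numbers in these counts was not tested.

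The 54 fallen genes shared no functional list beyond single members. The largest fall among genes with a mean of at least 50 was that of metrnla, which encodes a secreted meteorin-like protein (chromosome 3, 48473346 to 48489887, 4 exons), by 4.1 (SE 0.66) at adjusted p = 7.02e-08 per the authors' deposited table. Of the 54, 14 reached a mean of 50. raver1, a partner of the polypyrimidine tract binding protein, fell by 1.82 (SE 0.63) at adjusted p = 0.00913 and caprin1b, an RNA-binding protein of growing cells, by 1.47 (SE 0.64) at adjusted p = 0.0206 (from the authors' deposited table). prkg1a, a cGMP-dependent kinase gene of 140588 bases, fell by 2.00 (SE 0.74) at adjusted p = 0.0125 and snu13a, a small nuclear ribonucleoprotein gene, by 1.8 (SE 0.92) at adjusted p = 0.0359 by the authors' deposited table. Of the 54 genes 4 also fell at the 256-cell stage (7.41%), namely metrnla, raver1, eif4h and ica1, against 0.373% of all genes tested there. At that stage 39 of the 54 had a negative log2 fold change.

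Calls at the 2 stages were set side by side, since the stages share no library. Of the 690 genes risen at the 1024-cell stage 207 also rose at the 256-cell stage, 30% of the former and 45% of the 460 risen there. Over all tested genes, 5.04% rose at the 256-cell stage and 5.89% at the 1024-cell stage. Only 32 of the 690 had no adjusted p at the earlier stage. By group, histone genes had 38 members risen at the 1024-cell and 17 at the 256-cell stage, hnRNP and helicase genes 14 and 7, ribosomal protein genes 14 and 3, and MCM and licensing genes 5 and 1. Genes of cyclins, cdk1 and mitosis had 5 and 0 risen members and translation factors 6 and 0. The reverse held for mir-430 genes, with 23 and 36, early zygotic transcription factors, with 11 and 16, and Wnt genes, with 1 and 5. Nodal genes had 5 at each stage. These differences between groups were not tested, and fewer genes were tested at the earlier stage, 9124 against 11724. Ribosomal protein genes had 42 tested at the earlier stage against 68, and translation factors 62 against 72. Histone genes were nearly level, with 54 against 55.

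**Figure D5:**
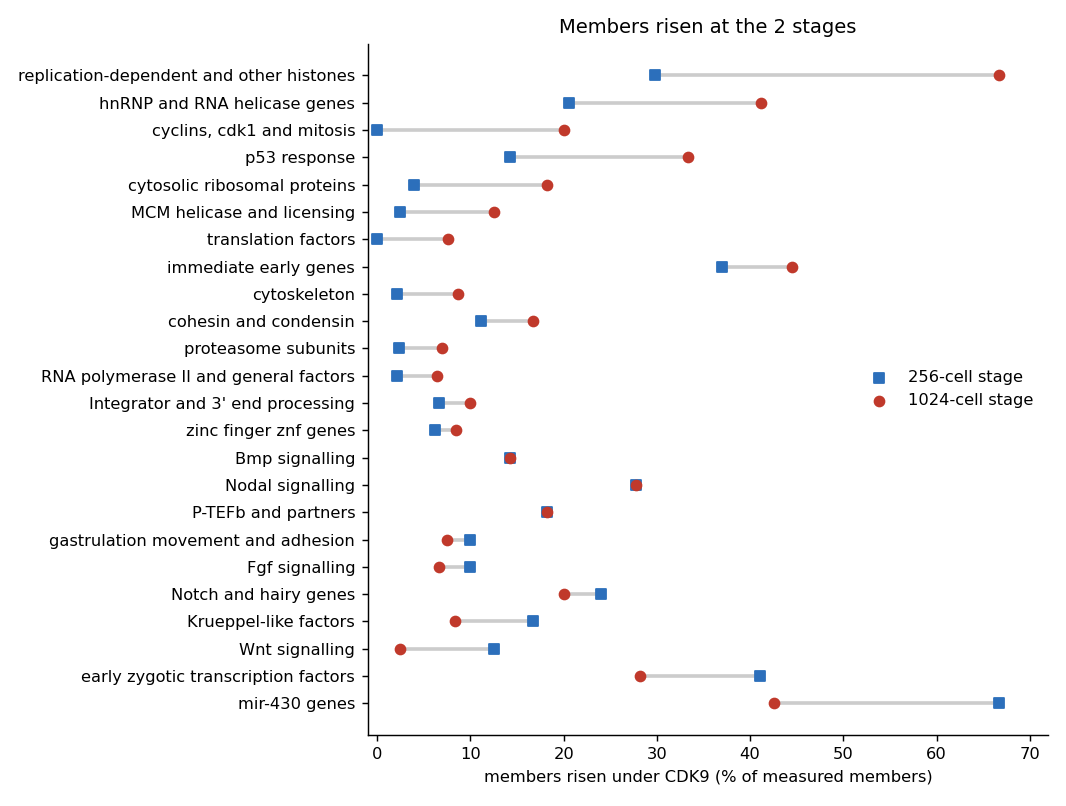
Members of each functional group that rose under CDK9 (horizontal axis, percent of all measured members) at the 256-cell stage (blue squares) and the 1024-cell stage (red circles), for groups with at least 4 calls over both stages, ordered by the difference. Histone genes went from 29.8% to 66.7% and mir-430 genes from 66.7% to 42.6%.

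Single genes were compared between stages by the difference of their deposited log2 fold changes over the combined SE, two-sided and adjusted over 16996 genes by Benjamini-Hochberg, an approximate test since the estimates are shrunken. It called 15 genes, 6 with the higher value at the 1024-cell stage and 9 at the 256-cell stage. With differences of z statistics the numbers were 2 and 5, and among genes with a mean of at least 50 they were 11 and 6, so neither the number of calls nor the balance of directions held across settings. The H2B gene hist1h2ba had 6.25 at the 1024-cell and 0.86 at the 256-cell stage per the authors' deposited table, a difference of 5.38 (SE 1.17, adjusted p = 0.00601 by this approximate test across all genes). acin1a had 2.24 and −0.09 (from the authors' deposited table), a difference of 2.33 (SE 0.55, adjusted p = 0.0245 by the same test). nsun5, which encodes a ribosomal RNA methyltransferase, had 4.70 and 0.02 by the authors' deposited table, a difference of 4.68 (SE 1.07, adjusted p = 0.0165 by the same test). All 9 genes higher at the 256-cell stage, akap12b among them, had deposited folds there that the counts cannot size. Their calls rest on those folds, so only their direction is read.

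MiR430 and CDK9 at the 1024-cell stage were each compared with the same 3 untreated libraries, and an unusual level in those libraries would move both. Their values for the named genes therefore stand side by side, without any comparison. Under MiR430, hist1h2ba had 4.05 at adjusted p = 0.000139, brdt 3.35 at adjusted p = 0.00234, mcm5 2.45 at adjusted p = 0.00803 and srsf5a 2.7 at adjusted p = 0.0101 per the authors' deposited table. golim4b, a Golgi protein gene with a mean of 16.4, had 4.18 at adjusted p = 0.00357 under MiR430 and 6.36 (SE 1.47) at adjusted p = 1.12e-05 under CDK9 (from the authors' deposited table). cdk9 had 0.03 at adjusted p = 0.812, hspa5 0.12 at adjusted p = 0.634, polr2a 0.38 at adjusted p = 0.286 and metrnla −1.12 at adjusted p = 0.127 under MiR430 by the authors' deposited table. The part of the shared untreated libraries in these values was not tested.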

How the data were processed

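RNA of whole embryos was measured by enriched SLAM-seq in 18 libraries, 3 for each of 3 conditions at 2 stages. The submitters' processing notes name Trimmomatic, HISAT, SAMtools, Picard, featureCounts, DESeq2 and GRCz11, with no role or version for any. The mean normalized count deposited by the authors is a signal per gene. The deposited log2 fold changes and SEs are the authors' shrunken estimates, judged from their values. Each deposited p-value and adjusted p was likewise taken as the authors gave it, and a Benjamini-Hochberg adjustment recomputed from their p over the 11724 genes with an adjusted p gave the same values. The 18 count columns were left out, so depth per library is unknown here, and the planned edgeR fit was not run. Symbols, coordinates and exons came from the deposited count table, and 510 IDs of the comparison tables had no symbol there. Exons are merged blocks of all annotated exons.

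Genes were called at an adjusted p under 0.05. Members and lists were chosen with earlier results of these data known, and 50 lists were described by counts and medians. Whether replicates came from separate clutches was not settled, so p-values measure the spread between these libraries. Genes named were cdk9, the 10 largest rises and falls with a mean of at least 50, up to 5 members per list, up to 3 per class of span, exons or chromosome 4 window, and 5 per direction of the stage difference, of which a selection is printed. Others, such as hexim1, vox, drll.3, hmga1a, c2cd2l, arhgef6, histone variants and risen members given by name only, were chosen after their values were seen. Python 3.11.15, numpy 2.4.6, pandas 2.3.3, scipy 1.17.1 and matplotlib 3.10.9 were used. The result of 1 gene is not reported here.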

Additional observations from a re-analysis of the deposited data

Results flagged for a closer look

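The fold under CDK9 differed between the 1024-cell and 256-cell stages in 15 of 16996 genes by the approximate test of the difference with Benjamini-Hochberg adjustment, and up to 5 per direction are given. The log2 fold change was higher at the 1024-cell stage by 5.38 in hist1h2ba, by 4.69 in the hist1h4l copy ENSDARG00000111165, by 4.68 in nsun5, by 4.59 in zgc:112234 and by 2.33 in acin1a. It was higher at the 256-cell stage in BX927212.1, akap12b and ENSDARG00000104883 (adjusted p = 1.33e-10 for each, by the approximate test across all genes), in CU182823.1 (adjusted p = 1.45e-09 by that test) and in znf1092 (adjusted p = 2.2e-08 by that test). No size is given for these last 5, because fewer than 3 reads would be left for the lower group at the deposited fold. Their adjusted p was computed from those same folds and does not measure the strength of the difference, so only the direction is read. By differences of z statistics 7 genes were called in place of 15.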

How the results depend on the processing

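Against 690 risen and 54 fallen genes, adjustment over the 2390 genes with a mean of at least 50 gave 405 and 30, since fewer genes were tested, the authors' own call rule 311 and 11, and an adjusted p under 0.01 326 and 12. Both counts stayed within 1.5 times under adjustment over all 16996 genes (579 and 37), after recentring of statistics on their median of 0.19 (518 and 73), without chromosome 4 (594 and 50), without histone genes (641 and 51) and without mitochondrially encoded genes (690 and 54). The share risen under 5 kb, 18.7%, and at 50 kb or more, 1.07%, were 45.8% and 1.69% at a mean of at least 50, 13% and 3.66% by summed exon length with equal numbers of genes, 13.1% and 0.861% in named nuclear genes, and 9.82% and 0.694% without genes within 10 kb of a risen one; the last 2 settings were chosen after seeing the data. The stage difference gave 7 genes with z statistics (2 higher at the 1024-cell stage) and 17 at a mean of at least 50 (11 higher there), against 15 (6 higher there). Of 162 called named genes, 16 lost their call with adjustment over all genes and 18 after recentring, and 0 changed direction. Of genes named above, brd3a, gtf2h2, utp3, cox7a2l, lft1, adar and gata3 lost it under both. So did casp8ap2, chaf1a and mdm2, whose p-values are larger than that of brd3a. hdac4 and snu13a lost it under the former, and sf3b6, fgf17 and pkz under the latter. h2az2a, with a larger p-value than sf3b6, lost it at least under the latter. Of 45 list counts, 8, 21 and 12 moved by over 1.5 times with adjustment over all genes, over a mean of at least 50 and after recentring. No paired analysis was possible because the count columns match no sample label. The edgeR fit, the replicate block, DESeq2 on the counts and leaving out replicates were not run for the same reason. Low means limit the calls: 0.111% of genes under a mean of 5 rose. Genes can also reach a mean of at least 50 through the rise itself.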
